A study of Arabidopsis thaliana with 30 samples.

Results

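The members described here are 39 nuclear genes of Arabidopsis thaliana that encode subunits of the photosynthetic electron transport chain and of the chloroplast ATP synthase. They were found by locus in the table of expression values, whatever the suffix of the row name, and every one was measured by 1 probe set, out of 30237 probe sets for 29920 loci. By role they are 13 genes of the photosystem I core, 4 of the photosystem I antenna, 10 of photosystem II, 7 of the cytochrome complex and the mobile carriers, 2 of the ATP synthase and 3 of cyclic electron flow. RNA came from leaf 3 of Col-0 seedlings, which were kept in vitro on MS medium under 16 h of light and 8 h of dark, at 22 °C. In one experiment seedlings were treated with norflurazon at day 8 after stratification. Leaf 3 was harvested after 24 h (day 9, NF) or 48 h (day 10, NF). MS leaves of the same ages, without norflurazon, were the controls. The sample records give these controls the same treatment day and hours after treatment. In the other experiment, a time course of untreated leaves was sampled at days 8, 9, 10, 11, 12 and 13. Each of the 10 groups had 3 arrays, which the labels call biological repeats, so 30 arrays in all. No allele or transgene is named for any group, the dose of norflurazon is not given in the sources used here, and neither is the number of leaves pooled per sample.

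Photosystem II takes electrons from water, and the cytochrome b6f complex and plastocyanin pass them to photosystem I, which reduces ferredoxin; ferredoxin-NADP reductase then makes NADPH, and the ATP synthase uses the proton gradient built along the way. The chloroplast genome encodes the reaction centres, whereas the peripheral, lumenal and antenna subunits are encoded in the nucleus and imported, and several of them have a pair of gene copies. Norflurazon blocks phytoene desaturase in carotenoid synthesis, and plants without carotenoids bleach in light; the compound is widely used to study signals from damaged plastids that lower nuclear photosynthesis genes.

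Values are log2 expression values normalized by the authors, and a difference of 1 means a doubling. A member is said to have risen or fallen where limma's moderated test gave a Benjamini-Hochberg adjusted p under 0.05 over all probe sets of that comparison. Levels of different probe sets cannot be set against each other, so only changes are compared between genes. Group means of the members ran from 4.84 for PGRL1B at day 8 to 13.09 for PSBX in MS leaves at day 10, while the median over all probe sets of an array was between 3.5 and 3.63 for time course arrays and between 2.81 and 2.88 for those of the norflurazon experiment. Some arrays stood apart from their group across the members: the third array of day 9 was the lowest of its group for 38 of 39 members, the first of day 10 for 37, and the third of MS day 10 for 38, while the third of day 12 was the highest for 38. Members therefore did not vary independently within a group.

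All 39 members rose between days 8 and 13, and for each of them the 3 arrays of day 13 lay above the 3 of day 8. Among all probe sets 13.9% rose in the same comparison and 19.5% had their day 13 arrays above those of day 8. The median change over the members was 1.25 on the log2 scale, beside 0.02 over all probe sets, and the changes ran from 0.60 for FD2 to 2.41 for PSAD2, or 1.51-fold to 5.31-fold. The moderated F test over all 6 ages also called all 39 members, against 32.4% of all probe sets. In RNA of whole leaves, a change in the share of cells that express a gene and a change in its RNA per cell cannot be told apart.

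The cell makeup of the leaf, as read from marker genes, moved over the same days. All 5 markers of dividing cells fell, and their summed level (log2) was 7.85 to 8.25 at day 13 and 10.34 to 10.53 at day 8. All 5 guard cell markers rose, to 10.21 to 10.40 at day 13 against 6.05 to 6.91 at day 8, and all 5 vasculature markers rose, to 8.44 to 8.69 against 5.72 to 5.79. All 3 trichome regulators fell, with summed levels of 4.88 to 5.01 at day 13 and 7.80 to 7.84 at day 8. Of 4 epidermis probe sets 1 rose and 2 fell (10.15 to 10.38 at day 13, 11.32 to 11.47 at day 8). Of 4 probe sets for mesophyll function 2 rose (14.57 to 15.58 at day 13, 14.60 to 14.71 at day 8). CA1 went from a mean of 5.07 at day 8 to 12.11 at day 13, and RCA from 9.3 to 11.92. Most of the sum came from the 2 probe sets of RBCS1A, with means of 13.72 and 13.54 at day 8 and 13.69 and 13.65 at day 13. Of 6 for the shoot meristem none was called (5.65 to 6.10 at day 13, 5.56 to 5.96 at day 8). Arrays give no value of 0 for an absent marker. The part of these shifts in the members' changes was not tested.

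**Figure D1:**
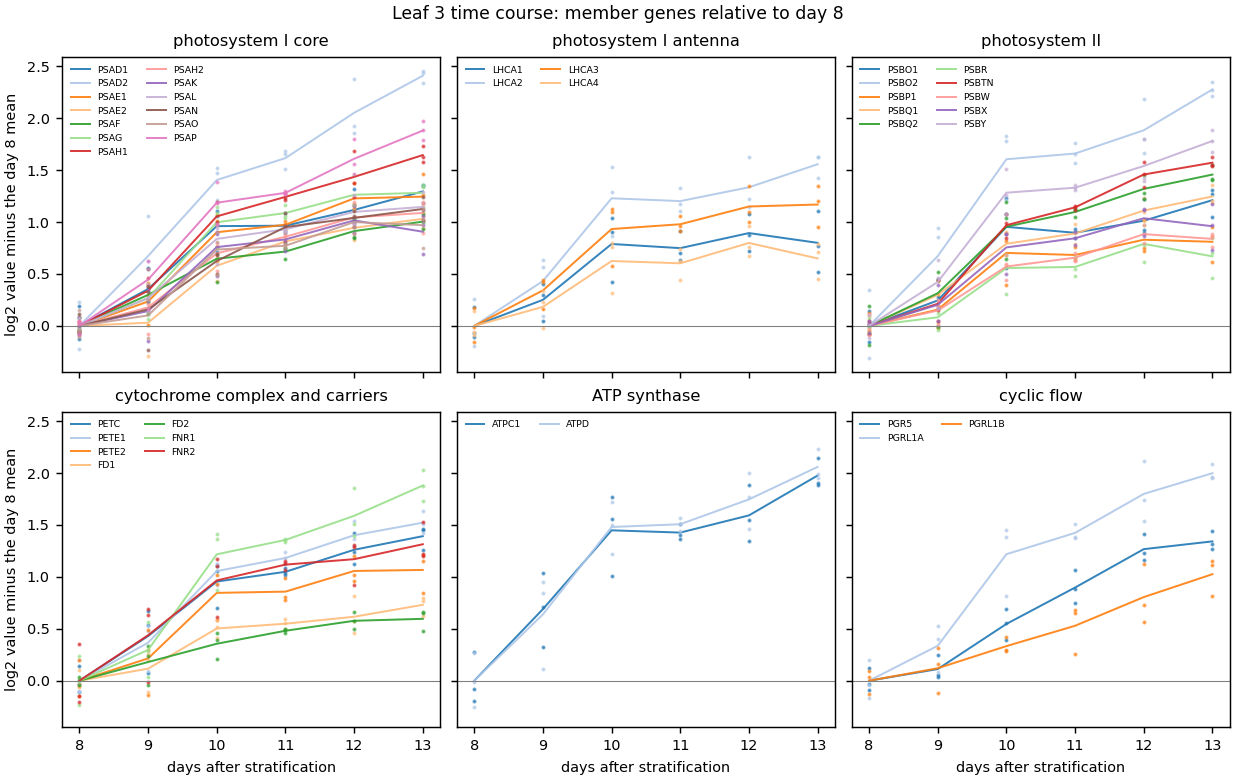
Log2 value of each member minus its own day 8 mean, plotted against days after stratification, in 1 panel per role; lines join the means of 3 arrays and points are single arrays. Most lines climb steeply between days 9 and 10 and flatten at day 11. Of the antenna genes, LHCA1 and LHCA4 end close to where they stood at day 10, and LHCA2 and LHCA3 end somewhat higher.

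Within the photosystem I core the median change of day 13 against day 8 was 1.15, and the 13 genes ran from 0.91 for PSAK to 2.41 for PSAD2. PSAD2 (AT1G03130) encodes one form of the stromal subunit that docks ferredoxin, and its arrays read 8.95, 8.50 and 8.71 at day 8, 9.35, 9.78 and 9.05 at day 9 and 9.94, 10.25 and 10.20 at day 10. They went on to 10.37, 10.41 and 10.23 at day 11, 10.64, 10.57 and 11.10 at day 12 and 11.17, 11.16 and 11.06 at day 13. All arrays from day 9 on lay above those of day 8, and the day 13 arrays were nearly level with each other. The rise to day 13 was 2.41 ± 0.17 (SE, adjusted p = 1.6e-08, limma). PSAK (AT1G30380), a peripheral membrane subunit on the antenna side, stood at 11.77, 11.60 and 11.68 at day 8, 12.03, 11.92 and 11.54 at day 9, 12.17, 12.57 and 12.59 at day 10, 12.50, 12.65 and 12.40 at day 11, 12.58, 12.68 and 12.84 at day 12 and 12.65, 12.38 and 12.74 at day 13. Its day 13 arrays were above day 8 but overlapped those of days 10, 11 and 12, and the rise was 0.91 ± 0.15 (SE, adjusted p = 9e-05). Between these extremes, PSAP rose by 1.88 and PSAH1, for the subunit at which light-harvesting complex II docks, by 1.64. PSAP was counted with the core by its gene name, PSI-P, and is also listed as the thylakoid curvature gene CURT1B. On the plastocyanin side, PSAF, the lumenal docking site of plastocyanin, rose by 1.0 and PSAN by 1.13. PSAO (0.97), PSAE2 (1.03) and PSAH2 (1.09) rose by similar amounts.

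The 4 antenna genes encode the chlorophyll-binding proteins that form the belt of photosystem I, and their median change was 0.98, beside 1.15 for the core. LHCA2 (AT3G61470) changed most, with 10.59, 10.13 and 10.26 at day 8, 10.89, 10.96 and 10.43 at day 9, 11.19, 11.86 and 11.62 at day 10, 11.51, 11.65 and 11.43 at day 11, 11.55, 11.48 and 11.96 at day 12 and 11.95, 11.75 and 11.96 at day 13. LHCA4 (AT3G47470) changed least, with 12.05, 11.82 and 11.84 at day 8, 12.24, 12.13 and 11.88 at day 9, 12.22, 12.66 and 12.71 at day 10, 12.53, 12.64 and 12.35 at day 11, 12.58, 12.67 and 12.86 at day 12 and 12.62, 12.35 and 12.69 at day 13. Both genes were clear of their day 8 arrays from day 10 on, and neither day 13 set was clear of day 10. The changes to day 13 were 1.56 ± 0.18 (SE, adjusted p = 3.05e-06) for LHCA2 and 0.65 ± 0.15 (SE, adjusted p = 0.00185) for LHCA4, with LHCA3 at 1.17 and LHCA1 at 0.80.

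Among the 10 photosystem II genes the median change was 1.23. PSBO2 (AT3G50820), one of a pair of genes for the manganese-stabilizing protein of the water-splitting site, had 8.88, 8.23 and 8.49 at day 8, 9.48, 9.39 and 8.75 at day 9 and 9.74, 10.36 and 10.31 at day 10. The later arrays were 10.19, 10.10 and 10.29 at day 11, 10.34, 10.20 and 10.72 at day 12 and 10.88, 10.75 and 10.81 at day 13. All arrays of day 13 were above those of every other age, and the rise from day 8 was 2.28 ± 0.21 (SE, adjusted p = 2.08e-07). PSBR (AT1G79040), a small protein near the water-splitting site, changed least, with 11.81, 11.67 and 11.73 at day 8, 11.90, 11.86 and 11.69 at day 9, 12.04, 12.42 and 12.42 at day 10, 12.29, 12.40 and 12.22 at day 11, 12.35, 12.51 and 12.71 at day 12 and 12.44, 12.20 and 12.58 at day 13. It was above its day 8 arrays from day 10 on but level with day 10 afterwards, and its rise was 0.67 ± 0.13 (SE, adjusted p = 0.000503). The small subunit genes PSBY and PSBTN rose by 1.78 and 1.57, more than PSBX (0.96) and PSBW (0.84). Of the other genes for the extrinsic proteins of the water-splitting site, PSBQ2 rose by 1.46, PSBQ1 by 1.25, PSBO1 by 1.21 and PSBP1 by 0.81.

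The cytochrome complex and carriers had a median change of 1.31. FNR1 (AT5G66190), a leaf ferredoxin-NADP reductase, had 8.21, 7.74 and 7.96 at day 8, 8.25, 8.54 and 8.01 at day 9, 8.84, 9.34 and 9.39 at day 10, 9.34, 9.33 and 9.31 at day 11, 9.48, 9.37 and 9.82 at day 12 and 10.0, 9.85 and 9.71 at day 13. FD2 (AT1G60950), the major leaf ferredoxin, had 11.78, 11.81 and 11.73 at day 8, 12.01, 12.12 and 11.74 at day 9, 11.99, 12.17 and 12.24 at day 10, 12.24, 12.27 and 12.26 at day 11, 12.35, 12.44 and 12.28 at day 12 and 12.44, 12.25 and 12.43 at day 13. Both were above day 8 from day 10 on, FNR1 by a wide margin and FD2 by a narrow one. Their rises were 1.88 ± 0.17 (SE, adjusted p = 1.89e-07) for FNR1 and 0.60 ± 0.11 (SE, adjusted p = 0.000221) for FD2. PETC, the Rieske iron-sulfur protein of the cytochrome complex, rose by 1.39, and the plastocyanin genes PETE1 and PETE2 by 1.52 and 1.07. FNR2 rose by 1.31 and FD1, a minor leaf ferredoxin, by 0.73.

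The 2 members that encode subunits of the ATP synthase rose 4.17-fold (ATPD) and 3.94-fold (ATPC1) between days 8 and 13. They are not all of its nuclear genes: ATPC2 and ATPF2 were counted with the further thylakoid genes below. ATPD (AT4G09650), the delta subunit, had 9.39, 8.87 and 9.11 at day 8, 9.97, 10.08 and 9.24 at day 9, 10.35, 10.85 and 10.62 at day 10, 10.57, 10.70 and 10.63 at day 11, 10.90, 10.59 and 11.13 at day 12 and 11.36, 11.08 and 11.12 at day 13. ATPC1 (AT4G04640), the gamma subunit that turns inside the head, had 8.76, 8.29 and 8.40 at day 8, 9.20, 9.52 and 8.81 at day 9, 9.50, 10.26 and 10.05 at day 10, 9.85, 10.0 and 9.89 at day 11, 10.03, 9.83 and 10.37 at day 12 and 10.63, 10.39 and 10.38 at day 13. The day 9 arrays were widely spread in both genes, and the third was the lowest, within the day 8 range for ATPD and just above it for ATPC1. The rises to day 13 were 2.06 ± 0.20 (SE, adjusted p = 4.37e-07) for ATPD and 1.98 ± 0.20 (SE, adjusted p = 7.06e-07) for ATPC1.

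Cyclic electron flow returns electrons from ferredoxin to the plastoquinone pool, and PGR5 with its membrane partners PGRL1A and PGRL1B is needed for its main route. PGRL1A (AT4G22890) had 8.05, 7.82 and 7.69 at day 8, 8.38, 8.26 and 7.93 at day 9, 8.67, 9.31 and 9.24 at day 10, 9.37, 9.24 and 9.23 at day 11, 9.60, 9.39 and 9.97 at day 12 and 9.94, 9.81 and 9.80 at day 13. PGRL1B (AT4G11960) had 4.88, 4.71 and 4.94 at day 8, 5.16, 5.0 and 4.73 at day 9, 5.26, 5.14 and 5.13 at day 10, 5.49, 5.52 and 5.10 at day 11, 5.57, 5.41 and 5.96 at day 12 and 5.96, 6.0 and 5.66 at day 13. PGRL1A had left its day 8 arrays well behind by day 10, whereas PGRL1B was only just above them. PGR5 (AT2G05620) had 7.40, 7.46 and 7.61 at day 8, 7.52, 7.74 and 7.55 at day 9, 7.89, 8.05 and 8.18 at day 10, 8.24, 8.37 and 8.56 at day 11, 8.72, 8.65 and 8.90 at day 12 and 8.93, 8.81 and 8.76 at day 13. At days 10, 11 and 12 the PGR5 arrays each time lay clear above those of the day before. The rises to day 13 were 2.0 ± 0.17 (SE, adjusted p = 1.2e-07) for PGRL1A, 1.03 ± 0.16 (SE, adjusted p = 5.22e-05) for PGRL1B and 1.34 ± 0.11 (SE, adjusted p = 9.11e-08) for PGR5.

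**Figure D2:**
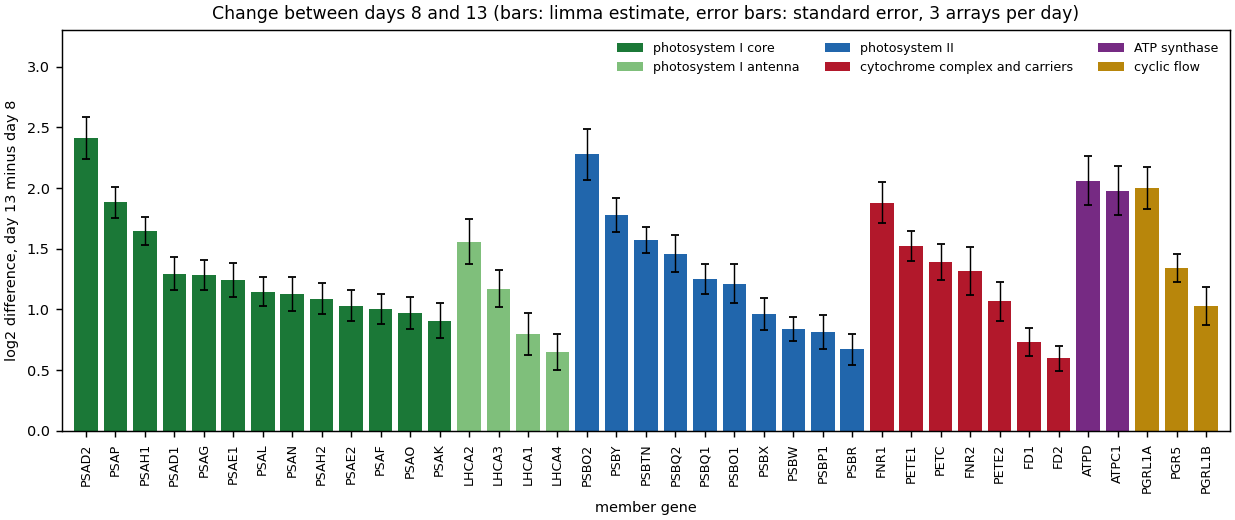
Log2 difference of day 13 minus day 8 for each of the 39 members, grouped and coloured by role and sorted within a role; bars are limma estimates and error bars standard errors, with 3 arrays per day. Every bar is above 0, from 0.60 for FD2 to 2.41 for PSAD2, and both ATP synthase genes stand near the upper end, at 1.98 and 2.06.

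Of the 5 intervals of 1 day, that between days 9 and 10 held the largest step for 37 of 39 members. The same share was not computed over all probe sets. Of these, 2232 were called in that interval, against 386, 0, 210 and 465 in the others in order of age. Without the third array of day 9 the median step of the members was 0.48 from day 9 to day 10 and 0.37 from day 8 to day 9. From day 9 to day 10, 32 of 39 members rose and none fell, while 2.37% of all probe sets rose, with a median change of 0.61 and values of 0.18 for FD2 to 0.93 for PSBO2. All 10 photosystem II genes and both ATP synthase genes were among the 32, with 11 of 13 core genes, 2 of 4 antenna genes, 5 of 7 carriers and 2 of 3 cyclic flow genes. Not called were FD2 (0.18), PGRL1B (0.21), PSAF (0.35), LHCA4 (0.44), PSAN (0.47), FNR2 (0.53) and LHCA1 (0.54). The count rests on single arrays: it was 8 of 39 without the third array of day 9, 8 without the second of day 10 and 10 without the third of day 10, and 5 when only the arrays of days 9 and 10 entered the fit. The number of all probe sets that rose fell as well, from 718 with all arrays to 206, 271, 269 and 218 in these fits, in the same order. FNR1, PSAG, PSAH1, PSBTN and PSBY were called under every alternative tried.

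In the other intervals of 1 day no member was called. From day 8 to day 9 all 39 differences were above 0, with a median of 0.27, and 17 members had an unadjusted p under 0.05, where 12.3% of all probe sets did. The share of all probe sets called was 1.28%. Without the third array of day 9 the count was 7 of 39, all higher, and 363 of 30237 probe sets were higher in that fit. From day 10 to day 11, 33 differences were above 0 with a median of 0.09, 2 members had an unadjusted p under 0.05, where 7.13% of all probe sets did (2156), and the share of all probe sets called by limma was 0%. From day 11 to day 12 all 39 were above 0, with a median of 0.20. An unadjusted p under 0.05 was found for 6 members, a share near the 11.7% of all probe sets, and 0.695% of all probe sets were called. From day 12 to day 13, 31 were above 0 with a median of 0.11 and 0 at an unadjusted p under 0.05, where 13.9% of all probe sets were, and 1.54% of all probe sets were called.

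Longer spans divide the period at day 10. Between days 8 and 10, 38 of 39 members rose, against 6.47% of all probe sets, and PGRL1B was the exception (0.33 ± 0.16, SE, adjusted p = 0.182). Between days 10 and 13, 18 of 39 rose, against 8.31% of all probe sets: 7 of 13 core genes, 5 of 10 photosystem II genes, 3 of 7 carriers, all 3 cyclic flow genes, and none of the 4 antenna genes or the 2 ATP synthase genes. The antenna had a median of 0.13, whereas the ATP synthase genes missed the threshold with differences of 0.53 ± 0.20 for ATPC1 (SE, adjusted p = 0.0877) and 0.58 ± 0.20 for ATPD (adjusted p = 0.0582), above the medians of 0.36 of the core and of photosystem II. The count of 18 became 7 without the first array of day 10, 8 without the first of day 13, 10 without the third of day 13 and 9 with arrays centred on their medians. In the same order, 1939, 2069, 2297 and 1962 of all probe sets rose, against 2512 with all arrays as deposited. The members called throughout were PSAD2, PSAH1, PSAP, PSBTN and the 3 cyclic flow genes. The largest later changes were 1.0 ± 0.17 for PSAD2 (adjusted p = 0.000561) and 0.80 ± 0.11 for PGR5 (adjusted p = 0.000109), while LHCA1 (0.01) and LHCA4 (0.02) were nearly level.

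As a share of the change from day 8 to day 13, the members had covered a median of 21.2% by day 9, 70.5% by day 10, 77.2% by day 11 and 91.7% by day 12. By day 10 the antenna had covered 88.0% and the 3 cyclic flow genes 40.8%, with 98.6% for LHCA1 and 32.5% for PGRL1B as the extremes of all members. Photosystem I core genes stood at 64.5%, photosystem II genes at 71.2%, carriers at 68.9% and the ATP synthase genes at 72.6%. These shares describe the group means, and differences between roles were not tested.

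For 9 subunits the members include a pair of gene copies, and the difference between the copies within each array was followed with age. Across the 39 members the change from day 8 to day 13 was smaller where the day 8 value was higher, with a Pearson correlation of -0.57 and a Spearman correlation of -0.78, a description across genes of the same arrays in which the day 8 values enter both measures. Its part in the differences between copies and between roles was not tested. The slope of that difference on age passed a permutation test over the 18 time course arrays (100000 resamples, two-sided, adjusted over the 9 pairs) for 7 pairs. The ferredoxin docking copies parted most: PSAD2 had 11.17, 11.16 and 11.06 at day 13 and 8.95, 8.50 and 8.71 at day 8, and PSAD1 (AT4G02770) 11.83, 11.66 and 11.82 at day 13 and 10.67, 10.42 and 10.35 at day 8. PSAD2 rose by 2.41 and PSAD1 by 1.29, and PSAD2 minus PSAD1 moved by 0.218 per day (adjusted permutation p = 3e-05; the raw permutation p of 1e-05 is the smallest these resamples can give). PSBO2 likewise had 10.88, 10.75 and 10.81 at day 13 and 8.88, 8.23 and 8.49 at day 8, beside 12.06, 11.83 and 12.09 and 10.92, 10.63 and 10.79 for PSBO1 (AT5G66570). The slope of PSBO2 minus PSBO1 was 0.194 per day (adjusted permutation p = 3e-05), and in both pairs the day 13 differences lay above every day 8 difference.

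In the PGRL1 pair, PGRL1B rose by 1.03 and PGRL1A by 2.0, and PGRL1B minus PGRL1A moved by -0.206 per day (adjusted permutation p = 0.00018). PGRL1B was the member nearest the array medians (3.5 to 3.63), with a mean of 4.84 at day 8. The authors' normalization compresses low values, and its part in the slope of this pair was not tested. FNR2 (AT1G20020) had 9.26, 8.94 and 8.96 at day 13 and 8.09, 7.53 and 7.59 at day 8, so it rose by 1.31 beside 1.88 for FNR1, and FNR2 minus FNR1 moved by -0.128 per day (adjusted permutation p = 3.6e-05). PSAH2 (AT1G52230) had 12.32, 12.02 and 12.30 at day 13 and 11.17, 11.05 and 11.15 at day 8, beside 12.23, 12.18 and 12.34 and 10.55, 10.61 and 10.64 for PSAH1 (AT3G16140). PSAH2 minus PSAH1 moved by -0.10 per day (adjusted permutation p = 3.6e-05). In all 3 pairs the slope was negative, so the second-named copy gained on the first.

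For plastocyanin, PETE2 (AT1G20340) had 12.45, 12.14 and 12.51 at day 13 and 11.49, 11.16 and 11.25 at day 8, and PETE1 (AT1G76100) 11.04, 10.94 and 11.16 at day 13 and 9.73, 9.42 and 9.43 at day 8. PETE2 minus PETE1 moved by -0.0847 per day (adjusted permutation p = 3e-05). The PSBQ pair passed with the smallest slope, 0.0477 per day for PSBQ2 minus PSBQ1 (adjusted permutation p = 0.000643). PSBQ2 (AT4G05180) had 10.75, 10.60 and 10.61 at day 13 and 9.38, 9.01 and 9.19 at day 8, and PSBQ1 (AT4G21280) 11.62, 11.44 and 11.47 at day 13 and 10.36, 10.19 and 10.24 at day 8. Both PSBQ copies were clear of their day 8 arrays, by changes of 1.46 and 1.25. The PSAE pair (PSAE2 by 1.03, PSAE1 by 1.24) and the ferredoxin pair (FD2 by 0.60, FD1 by 0.73) did not pass, with slopes of -0.0327 (adjusted permutation p = 0.109) and -0.0256 (adjusted permutation p = 0.176). Copies with alike sequences may share probes on the array, and the probe sequences were not used here.

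**Figure D3:**
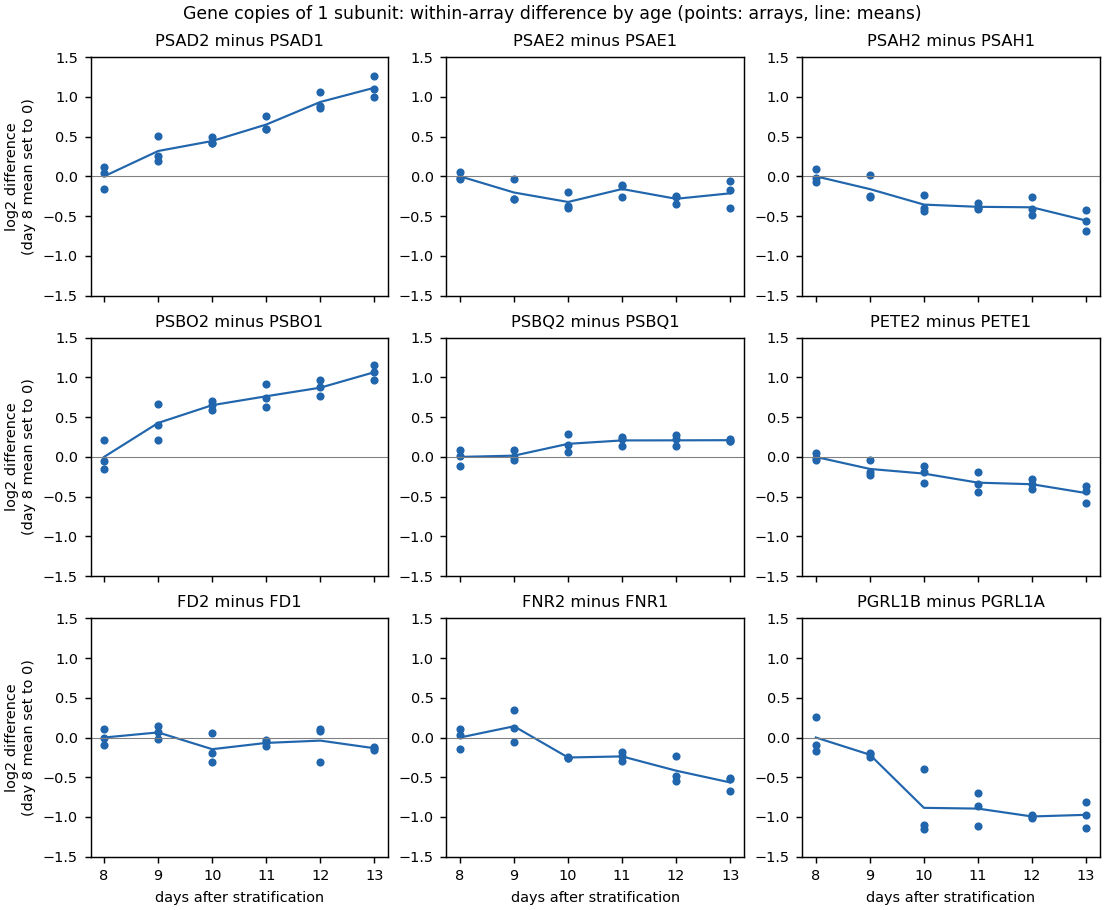
Within-array difference between the gene copies of 1 subunit (log2), with the day 8 mean set to 0, against days after stratification; points are single arrays and lines join the means. PSAD2 minus PSAD1 and PSBO2 minus PSBO1 climb by about 1 unit, PGRL1B minus PGRL1A falls by about as much, and FD2 minus FD1 stays near 0.

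Other genes of the thylakoid moved the same way for the most part. Of 17 further photosystem, carrier and ATP synthase genes 12 rose and 4 fell between days 8 and 13, where 13.9% of all probe sets rose and 19.8% fell, with LHCA6, an antenna protein that joins photosystem I to the NDH complex, at 3.44 and FD3, the ferredoxin of non-green tissue, at -2.99. The other 3 that fell were named after their values were seen: RFNR2 (-1.52) and RFNR1 (-1.25), the root forms of ferredoxin-NADP reductase, and ATPC2 (-0.56), a second gene for the gamma subunit. All 10 genes of the chloroplast NDH complex rose, led by PNSB1 (3.49) and NDHM (3.26), with a median of 2.94. Of 14 assembly factors 13 rose, led by HCF244 (2.17) and HCF173 (1.82), both needed for translation of the photosystem II D1 protein, and all 4 thylakoid kinases and phosphatases rose, led by PBCP (1.61) and TAP38 (1.57), phosphatases of the photosystem II core and of its antenna.

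Norflurazon at 24 h went with higher values for most members. At day 9, 24 of 39 members were higher in NF leaves than in MS leaves, where 3.6% of all probe sets were, and 1 was lower, where 3.83% of all probe sets were. The median difference was 0.41, beside -0.01 over all probe sets. By role, 9 of 13 core genes, 3 of 4 antenna genes, 6 of 10 photosystem II genes, 4 of 7 carriers and both ATP synthase genes were higher, and PGR5 of cyclic flow was the 1 lower. For 31 members the NF arrays lay above all MS arrays, against 11% of all probe sets. The total of 25 called members was 15 to 22 when single arrays were left out, with 15 without the second MS array of day 9 and 16 without the second NF array, and 15 when the fit held day 9 arrays alone. These last fits called 1638, 1416 and 1202 of all probe sets, in the same order, against 2248 with all arrays. The 13 members called under every alternative were FNR1, FNR2, LHCA1, LHCA2, PETE1, PSAD1, PSAE1, PSAE2, PSAF, PSAH2, PSBO2, PSBQ1 and PSBQ2.

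Markers of dividing cells also stood apart at day 9 in this experiment. Their summed level was 10.57 to 10.74 in NF day 9 and 9.44 to 9.88 in MS day 9 leaves, and 10.72 to 10.80 in NF day 10 and 10.41 to 10.47 in MS day 10 leaves. Of the 5 markers 4 were higher in NF than in MS leaves at day 9, and 4 rose from day 9 to day 10 in MS leaves, whereas 2 fell over the same days of the time course. Of the other lists, 1 of 4 probe sets for mesophyll function and 1 of 3 trichome regulators were higher and 2 of 5 vasculature markers lower in NF leaves at day 9, and none of the guard cell, epidermis or shoot meristem probe sets was called. The MS day 9 arrays are the controls of every comparison at that day, of the interaction and of the change in MS leaves, and their part in these results was not tested.

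The largest difference at day 9 was that of PETE1, 1 of the plastocyanin genes, with 10.35, 10.36 and 10.45 in NF and 9.18, 9.09 and 9.37 in MS leaves at day 9, and 10.80, 10.82 and 10.63 in NF and 11.11, 10.99 and 10.94 in MS leaves at day 10. NF leaves were more than 1 unit above MS leaves at day 9 and below them at day 10, with no overlap at either day. The difference was 1.17 ± 0.09 at day 9 (SE, adjusted p = 5.64e-05) and -0.26 ± 0.09 at day 10 (adjusted p = 0.199). The water-splitting gene PSBQ2 had 11.04, 11.20 and 11.30 in NF and 10.12, 9.66 and 10.43 in MS leaves at day 9, and 11.58, 11.59 and 11.29 in NF and 11.80, 11.73 and 11.49 in MS leaves at day 10. Its MS arrays of day 9 were the most spread out, yet all were under the NF arrays, while the day 10 groups overlapped. The differences were 1.11 ± 0.17 (adjusted p = 0.00212) and -0.19 ± 0.17 (adjusted p = 0.683).

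PSBO2 had 10.01, 9.76 and 9.93 in NF and 9.14, 9.13 and 9.01 in MS leaves at day 9, and 10.35, 10.41 and 10.12 in NF and 10.75, 10.54 and 10.47 in MS leaves at day 10. ATPD had 9.97, 9.97 and 9.74 in NF and 9.47, 9.12 and 9.40 in MS leaves at day 9, and 10.37, 10.41 and 10.11 in NF and 10.83, 10.68 and 10.54 in MS leaves at day 10. In both, the NF arrays were clear above MS at day 9 and clear below at day 10. FNR1 had 9.13, 9.10 and 9.04 in NF and 8.44, 8.33 and 8.61 in MS leaves at day 9, and 9.30, 9.40 and 9.23 in NF and 9.77, 9.64 and 9.43 in MS leaves at day 10. PSAH2 had 11.97, 11.94 and 12.04 in NF and 11.28, 11.15 and 11.61 in MS leaves at day 9, and 12.27, 12.34 and 12.21 in NF and 12.61, 12.55 and 12.43 in MS leaves at day 10. These too changed sides between the days without overlap. The day 9 differences were 0.81 for PSBO2, 0.56 for ATPD, 0.63 for FNR1 and 0.64 for PSAH2.

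PGR5 and PSBR did not follow this pattern. PGR5 had 9.72, 9.91 and 10.03 in NF and 10.18, 10.29 and 10.55 in MS leaves at day 9, and 9.60, 9.76 and 9.67 in NF and 10.14, 10.12 and 10.07 in MS leaves at day 10. It was lower in NF leaves at both days with no overlap, by -0.46 ± 0.10 at day 9 (SE, adjusted p = 0.0203) and -0.43 ± 0.10 at day 10 (adjusted p = 0.0849). The day 9 adjusted p of PGR5 was 0.00906 to 0.098 over the alternatives, and it missed the threshold with only the compared arrays and without the first or second NF array or the third MS array of that day. PSBR was the other member below 0 at day 9, with 12.61, 12.68 and 12.76 in NF and 12.71, 12.61 and 12.83 in MS leaves, which overlapped (-0.03 ± 0.08, adjusted p = 0.89). Its sign at day 9 turned in 2 of the fits that left out an array. The other members not called at day 9 ran from 0.01 for PGRL1B and 0.08 for PGRL1A to 0.35 for PSBY, namely PSAH1, PSAK, PSAL, PSAP, LHCA4, PSBW, PSBX, FD1, FD2 and PETE2 in between.

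**Figure D4:**
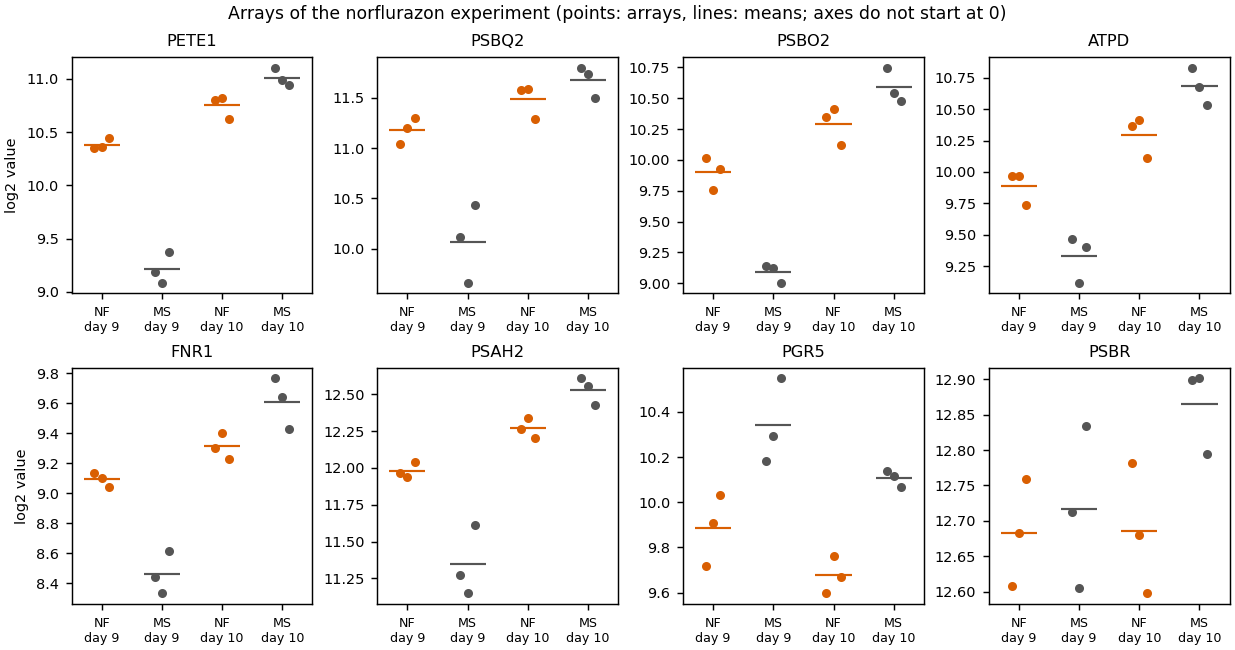
Log2 values of single arrays (points) and their means (lines) in NF and MS leaves at days 9 and 10, for the 6 members with the largest called interaction and for PGR5 and PSBR; the axes differ between panels and do not start at 0. In the 6 genes MS day 9 is the lowest group and MS day 10 the highest, whereas PGR5 is lower in NF leaves at both days.

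At 48 h the differences lay below 0, where most had been above 0 at 24 h. All 39 members were below 0 for NF against MS leaves at day 10, with a median of -0.22, but 0 were called by limma, where 0.771% of all probe sets were, and 21 members had an unadjusted p under 0.05, where 13.9% of all probe sets did. For 25 members the NF arrays lay below all MS arrays, against 8.96% of all probe sets. The largest differences were those of the cyclic flow genes PGR5 (-0.43) and PGRL1A (-0.42) and of ATPD (-0.39). PGRL1A had 9.69, 9.67 and 9.69 in NF and 10.21, 10.11 and 9.97 in MS leaves at day 10, which did not overlap, and 9.51, 9.81 and 9.82 in NF and 9.47, 9.51 and 9.91 in MS leaves at day 9, which did. Its day 10 difference had an adjusted p of 0.134.

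The smallest differences at day 10 were those of PGRL1B (-0.01), FNR2 (-0.02) and FD2 (-0.03), and each of them changed sign under some alternative. PGRL1B had 5.22, 5.06 and 4.92 in NF and 5.05, 5.30 and 4.88 in MS leaves at day 10, and 5.01, 4.97 and 5.01 in NF and 4.85, 4.99 and 5.13 in MS leaves at day 9. FNR2 had 9.48, 9.42 and 9.31 in NF and 9.51, 9.50 and 9.25 in MS leaves at day 10, and 9.51, 9.31 and 9.31 in NF and 8.79, 8.52 and 8.77 in MS leaves at day 9. PGRL1B overlapped at both days, whereas FNR2 overlapped at day 10 but lay above MS in all NF arrays of day 9, by 0.69 ± 0.10 (SE, adjusted p = 0.00196). FD2 had 12.79, 12.86 and 12.67 in NF and 12.84, 12.81 and 12.76 in MS leaves at day 10, and 12.63, 12.70 and 12.81 in NF and 12.41, 12.37 and 12.58 in MS leaves at day 9. It too was separate at day 9 (0.26 ± 0.08, adjusted p = 0.0829) and overlapped at day 10. By role the day 10 medians were -0.20 for the core, -0.22 for the antenna, -0.22 for photosystem II, -0.16 for the carriers, -0.35 for the ATP synthase and -0.42 for cyclic flow.

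**Figure D5:**
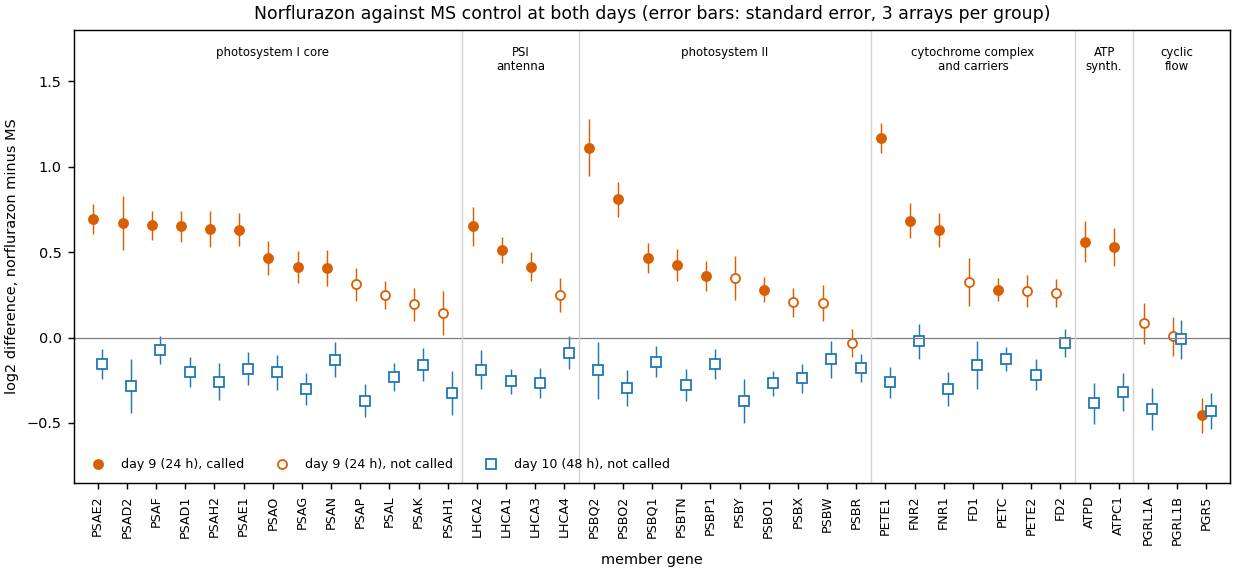
Log2 difference of norflurazon minus MS for each member at day 9 (circles) and day 10 (squares), grouped by role; filled symbols are called, open ones are not, and error bars are standard errors with 3 arrays per group. Day 9 differences reach 1.17 for PETE1 and all lie above 0 except PGR5 and PSBR, while all 39 day 10 differences lie below 0.

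The change of the NF effect between the days was tested as an interaction. It was called for 21 of 39 members, all with a lower NF effect at day 10 than at day 9, where 0.688% of all probe sets were, and the median over the members was -0.68. The largest called ones were PETE1 (-1.43 ± 0.13, SE, adjusted p = 0.0003), PSBQ2 (-1.30), PSBO2 (-1.10), ATPD (-0.95), FNR1 (-0.93) and PSAH2 (-0.90). The 21 comprised 8 core genes, 3 antenna genes, 5 photosystem II genes, 3 carriers and both ATP synthase genes, and none of cyclic flow, where PGR5 was at 0.03 ± 0.15 (adjusted p = 0.97). Without the third NF array of day 10 the count was 12, and without the first or the second MS array of day 10 it was 14. Among all probe sets 123, 115 and 116 were called lower in these fits, against 208 with all arrays. PSAD2 was not called (-0.95 ± 0.22, adjusted p = 0.0556) although only 3 members had a larger difference.

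The same arrays can also be read by age within each treatment. From day 9 to day 10, 35 of 39 members rose in MS leaves, against 5.18% of all probe sets, with a median of 0.82 and up to 1.80 for PETE1. In NF leaves 1 of 39 rose over the same day, LHCA1 (0.33 ± 0.07, SE, adjusted p = 0.0464), against 1.65% of all probe sets, with a median of 0.20. LHCA1 (AT3G54890) had 12.83, 12.86 and 12.74 at day 10 and 12.38, 12.47 and 12.59 at day 9 in NF leaves, and 13.09, 13.13 and 12.99 at day 10 and 12.01, 11.92 and 11.97 at day 9 in MS leaves. Its groups did not overlap in either treatment, but the call in NF leaves was lost in 5 of the 6 fits that left out 1 of these NF arrays. Without dim probe sets 9 members rose in NF leaves, and so did 672 of the 15118 probe sets kept. For 28 members every NF array of day 9 lay above all MS arrays of day 9 and below all MS arrays of day 10, as it did for 1.06% of all probe sets. These comparisons share the MS arrays, so they are not separate observations.

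The MS leaves can be set beside the time course over the same days, since neither was given norflurazon. The sample records count hours after treatment for MS leaves and none for the time course. The 2 sets of leaves are therefore not known to have been handled alike. The experiments were fitted apart, as they may be separate batches, and only the differences within each are given. From day 9 to day 10, 29 members rose in both, where 0.939% of all probe sets did. PSBR, FD1 and PGR5 were called in the time course and not in MS leaves (1.44% of all probe sets), 6 members in MS leaves and not in the time course (4.24%), and PGRL1B in neither (93.4%). The difference was larger in MS leaves for 29 of 39 members and for 49.9% of all probe sets, with the widest gap for PETE1 (1.80 in MS leaves, 0.69 in the time course). PGR5 differed in sign, at -0.23 ± 0.10 in MS leaves (adjusted p = 0.205) and 0.43 ± 0.11 in the time course (adjusted p = 0.0286). Across the 39 members the 2 sets of differences had a Pearson correlation of 0.57 and a Spearman correlation of 0.56, a description across genes measured on the same arrays. Whether the experiments differ was not tested.

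For the gene copies, the NF effect on the within-array difference was averaged over both days and tested by exact permutation of the treatment within days, where 0.005 is the smallest p that the 400 arrangements can give. No pair of the 9 passed after adjustment. Since the test averages the 2 days, it cannot decide on an effect present at 1 day alone. A permutation of 3 against 3 arrays at 1 day gives no two-sided p under 0.1. PSAH2 minus PSAH1 (0.28, exact permutation p = 0.015, adjusted 0.113) and FNR2 minus FNR1 (0.17, exact permutation p = 0.025, adjusted 0.113) came nearest. The copies parted by different amounts at the 2 harvests: PETE2 minus PETE1 was moved by -0.90 at day 9 and by 0.05 at day 10, PSBQ2 minus PSBQ1 by 0.65 and -0.05, and PSBO2 minus PSBO1 by 0.53 and -0.03. PETE2 minus PETE1 did not overlap at day 9 (1.71 to 1.77 in NF, 2.56 to 2.75 in MS leaves), yet its exact permutation p over both days was 0.085. PSAD2 minus PSAD1 was moved by 0.02 and -0.08, and PSAE2 minus PSAE1 by 0.06 and 0.03. For FD2 minus FD1 the values were -0.07 and 0.13, and for PGRL1B minus PGRL1A -0.08 and 0.41.

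Of 45 other thylakoid genes, 2 were called for NF against MS leaves at day 9, where 7.43% of all probe sets were, and 1 at day 10, where 0.771% were. At day 9, 1 of the 17 further photosystem genes was higher in NF leaves, PSBS, the protein that switches on heat dissipation (1.08 ± 0.10, SE, adjusted p = 0.000181), and 1 of 14 assembly factors was lower, PAM68 (-0.40 ± 0.11, adjusted p = 0.0406). None of the 10 NDH genes or the 4 kinases and phosphatases was called at that day, and their medians were -0.12 and -0.17. At day 10 the NDH subunit NDHN was lower (-0.49 ± 0.10, adjusted p = 0.0478), and no other of these genes was called. The medians at day 10 were -0.22 for the 17 photosystem genes, -0.18 for the assembly factors, -0.50 for the NDH genes and -0.32 for the kinases and phosphatases.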

How the data were processed

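Each sample of leaf 3 total RNA had its own AGRONOMICS1 array. The values are log2, deposited by the authors after RMA, and the annotation was TAIR9, both per the submitters' processing notes. The sources used here give neither the RMA version nor the probe definitions, and 0 columns belonged to other samples. RMA evens out array-wide shifts and compresses low values. The experiments were fitted apart, since they may be separate batches.

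The fits used limma (version 3.58.1, R 4.3.3) on all 30237 probe sets (1 coefficient per group, contrasts, eBayes, no filter on dim probe sets, Benjamini-Hochberg over all probe sets). Residual degrees of freedom were 12 for the time course and 8 for the norflurazon experiment, with 4.32 and 3.77 prior ones. The scripts were tested on simulated data. Gene copies were compared by within-array differences, with permutation tests over arrays. Symbols came from a RefSeq gene table on TAIR10.1, used for names only. Precision is limited by the number of arrays, 3 in each group.

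The members, the other gene lists and the markers were chosen with earlier results of these data known. Values per array are given, at the ages or days compared, for the members with the largest and smallest day 13 change in each role, the 3 largest and 3 smallest day 10 norflurazon differences, the 6 largest called interactions, and the copies whose difference passed its test. Of the other lists the 2 largest called changes are named. PSBR and LHCA1 were added in the norflurazon comparisons because they were exceptions there.

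Repeat numbers do not pair samples: same-numbered arrays of different groups had deviations from their group means that correlated at -0.25 to 0.17 over 45 pairs of time course arrays and at -0.065 to 0.089 over 18 pairs of norflurazon experiment arrays. Alternatives were another quantile normalization, median centring, a filter on dim probe sets, an intensity trend with a robust prior, the repeat number as a block, only the compared arrays, and leaving out each array.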

Additional observations from a re-analysis of the deposited data

Results flagged for a closer look

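The norflurazon effect differed between the harvests, by the interaction test of limma (adjusted p under 0.05 over all probe sets), for 21 members. Given as the log2 difference of norflurazon minus MS at day 10 minus that at day 9, the values among the carriers were -1.43 for PETE1, -0.93 for FNR1 and -0.71 for FNR2. In photosystem II they were -1.30 for PSBQ2, -1.10 for PSBO2, -0.70 for PSBTN, -0.61 for PSBQ1 and -0.55 for PSBO1. In the photosystem I core they were -0.90 for PSAH2, -0.85 for PSAE2, -0.85 for PSAD1, -0.82 for PSAE1, -0.73 for PSAF, -0.72 for PSAG, -0.68 for PSAP and -0.67 for PSAO. The antenna genes LHCA2, LHCA1 and LHCA3 had -0.84, -0.77 and -0.68, and the ATP synthase genes ATPD and ATPC1 had -0.95 and -0.85. All of them rest on the MS day 9 arrays, in which dividing-cell markers were also low, and the part of that was not tested.

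PGR5 differed in sign from day 9 to day 10 between the experiments, at -0.23 in MS leaves, which was not called (adjusted p = 0.205, limma), and 0.43 in the time course (adjusted p = 0.0286), each array of the later day lying on that side of all arrays of the earlier day. The difference between the experiments was not tested.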

How the results depend on the processing

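Between days 8 and 13 all 39 members, and between days 8 and 10 at least 37, were called under every alternative tried. The replicate block changed the member count by over 1.5 times only for day 10 minus day 9 in NF leaves (0, against 1) and the copies under norflurazon (2 of 9 pairs passed, against 0: PSAH2 minus PSAH1 and FNR2 minus FNR1, each with an adjusted exact permutation p of 0.045). Refitting with only the compared arrays gave 5 members for day 10 minus day 9, 15 for norflurazon at day 9 and 2 for day 10 minus day 9 in NF leaves, with fewer arrays to estimate the spread. Another quantile normalization gave 2 for day 9 minus day 8 and 2, both lower, for norflurazon at day 10, and it turned the norflurazon effect on PSAD2 minus PSAD1 to 0.026 (-0.032 as deposited). Median centring gave 9 for day 13 minus day 10 and turned PGRL1B under norflurazon at day 10 to 0.00709. Without dim probe sets, which leaves fewer tests, 1 member was called for day 9 minus day 8, 1 for norflurazon at day 10 and 9 for day 10 minus day 9 in NF leaves, and the intensity trend gave 6 there. Apart from what the alternatives' own construction shows, the cause was not tested.

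Leaving out single arrays gave 0 to 7 members for day 9 minus day 8, 8 to 34 for day 10 minus day 9, 7 to 18 for day 13 minus day 10, 15 to 22 for norflurazon at day 9, 12 to 27 for the interaction and 0 to 1 for day 10 minus day 9 in NF leaves, while 7 to 8 pairs passed the trend test. Differences near 0 changed sign in such fits. For norflurazon at day 9 these were PGRL1B (-0.063 to 0.0768) and PSBR (-0.0897 to 0.0243), and at day 10 FD2 (-0.0787 to 0.0179), FNR2 (-0.107 to 0.0238) and PGRL1B (-0.109 to 0.104). They also included the interactions of PGR5 (-0.0771 to 0.105) and PGRL1B (-0.117 to 0.0962), PGRL1B from day 9 to day 10 in MS leaves (-0.024 to 0.189), and the norflurazon effects on PSAD2 minus PSAD1 (-0.07 to 0.0352) and FD2 minus FD1 (-0.0392 to 0.111).

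Counts over all probe sets moved as well. Without dim probe sets they were 582 (386 with all) for day 9 minus day 8, 4 (0) for day 11 minus day 10, 357 (210) for day 12 minus day 11, 751 (465) for day 13 minus day 12, 558 (233) for norflurazon at day 10 and 929 (589) for the interaction. With only the compared arrays they were 16, 704, 3 and 2 for the intervals that start at days 8, 9, 11 and 12, and 1202 (2248) for norflurazon at day 9. Another quantile normalization gave 336 for day 12 minus day 11. Leaving out arrays gave 115 to 805, 749 to 2266, 0 to 6, 10 to 242 and 122 to 770 for the 5 intervals in order of age, 1416 to 2179 and 16 to 114 for norflurazon at days 9 and 10, 359 to 649 for the interaction and 259 to 340 for day 10 minus day 9 in NF leaves.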
